A study of Mus musculus with 4 samples.

Results

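Cycling hormone-sensing luminal cells are mammary cells that hold transcripts of the hormone-receptor lineage and of cell division together. They were taken by counts alone. To enter, a barcode needed a total of at least 1000 UMIs from at least 500 genes, with mitochondrial transcripts making up no more than 15% of them. In UMIs per 10000, it had 10 or more for the sum of Esr1, Prlr, Areg and Foxa1, under 10 for the sum of Acta2, Myh11, Mylk and Tagln (contractile genes of basal cells) and under 10 for the sum of Wfdc18, Csn3, Elf5 and Kit (genes of secretory luminal cells). It held a UMI of 3 or more of 10 cycle genes, Mki67, Top2a, Cdk1, Ccnb1, Birc5, Ube2c, Cenpf, Tpx2, Aurkb and Ccnb2. The rule took 496 cells, out of 6204 hormone-sensing cells and 25950 cells kept in all. They are compared with the 4528 hormone-sensing cells that held none of the 10 genes, called non-cycling here.

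The donors of the glands were mice aged 6 months, all of which carried pellets of estradiol and progesterone. Mice were wild type for Esr1, the gene of estrogen receptor alpha, or carried its Y541S mutation, and received vehicle (MCT) or 30 mg/kg giredestrant by mouth daily for 4 days. Giredestrant is an antagonist of the estrogen receptor that also leads to its degradation. Each of the 4 combinations was 1 library of EpCAM-sorted cells (10x Genomics 3′ kit 3.1). The labels give neither the number of mice behind a library nor whether the mutation was on 1 or both alleles. With 1 library per group there was no replicate check, so no p-value is given, and every 95% interval covers counting error only. The sorted cells are labelled mature luminal, but 5063 of the 7082 kept cells of the wild-type vehicle library passed the basal gate.

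The hormone-sensing lineage of the mammary gland carries the receptors for estrogen and progesterone. It passes hormone signals to neighbouring cells through secreted factors such as amphiregulin (Areg), RANKL (Tnfsf11) and Wnt4, and most dividing cells of the adult gland are known to be receptor-negative neighbours. A dividing cell first copies its DNA in S phase, which needs the MCM helicase, PCNA and the enzymes of nucleotide synthesis. It then condenses and separates its chromosomes in mitosis with kinesins, kinetochore proteins and the kinases Cdk1, Plk1 and Aurora B (Aurkb).

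The rule took 39 cells from the wild-type vehicle library, 138 from the wild-type giredestrant library, 218 from the Y541S vehicle library and 101 from the Y541S giredestrant library. Values are given in this order of libraries wherever 4 values stand together. Cycling cells were deep: their median UMI counts were 47173, 43320, 35450 and 15457, against 26791, 24682, 23408 and 7913 in non-cycling cells. The ratio of the medians lay between 1.51 and 1.95. Doublets were not removed from the values below. Taking out the highest doublet scores of each library would remove 3, 1, 9 and 7 cycling cells, which is 7.69%, 0.725%, 4.13% and 6.93% of them, against 1.20%, 0.679%, 0.953% and 3.91% of non-cycling cells. Between 7 and 23 kept barcodes were shared by a pair of libraries, and 2 cycling cells, 1 of wild-type vehicle and 1 of Y541S vehicle, had such a barcode.

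The share of hormone-sensing cells that was cycling was 6.15%, 13.3%, 10.51% and 4.11% when all UMIs were used. A deeper cell is more likely to show a UMI of any gene, so each cell was also thinned at random to 4000 UMIs and shallower cells were left out (17, 18, 55 and 435 cells). The thinned shares were 2.43% in wild-type vehicle (15 of 617 cells, exact binomial 95% interval 1.37% to 3.98%) and 5.28% in wild-type giredestrant (54 of 1022 cells, 3.99% to 6.84%). They were 4.95% in Y541S vehicle (100 of 2020 cells, 4.05% to 5.99%) and 3.12% in Y541S giredestrant (63 of 2020 cells, 2.40% to 3.97%). Wild-type giredestrant and Y541S vehicle had the high shares, and the lower limits of both lay just above the upper limit of wild-type vehicle. The intervals of wild-type vehicle and Y541S giredestrant overlapped. With 10 other cycle genes in place of those of the rule the shares were 2.11%, 2.84%, 3.17% and 2.33%, and at 2000 UMIs 1.75%, 2.91%, 3.66% and 2.41%, and in both settings the interval of wild-type vehicle overlapped those of wild-type giredestrant and of Y541S vehicle. At 8000 UMIs they were 4.13%, 6.17%, 6.73% and 4.83%, and the same intervals overlapped, but 28, 67, 100 and 1129 cells were left out there, in Y541S giredestrant 1129 of 2455. The interval of wild-type vehicle thus lay apart from those of the 2 libraries with high shares at 4000 UMIs under the rule as given. It did not at 2000 or 8000 UMIs or with the other genes. At 4000 UMIs it also overlapped both with the highest doublet scores removed (upper limit 4.04%, lower limits 4.02% and 3.88%). The same held with 4 or more cycle genes (3.17%, 2.64% and 3.15%). With 2 or more cycle genes, with gate sums thinned too, or with basal and secretory sums under 5, it overlapped wild-type giredestrant alone. Wild-type vehicle was lowest and Y541S giredestrant next at each of these thinned settings, while wild-type giredestrant and Y541S vehicle changed places. With all UMIs Y541S giredestrant, the shallowest library, was lowest.

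**Figure D1:**
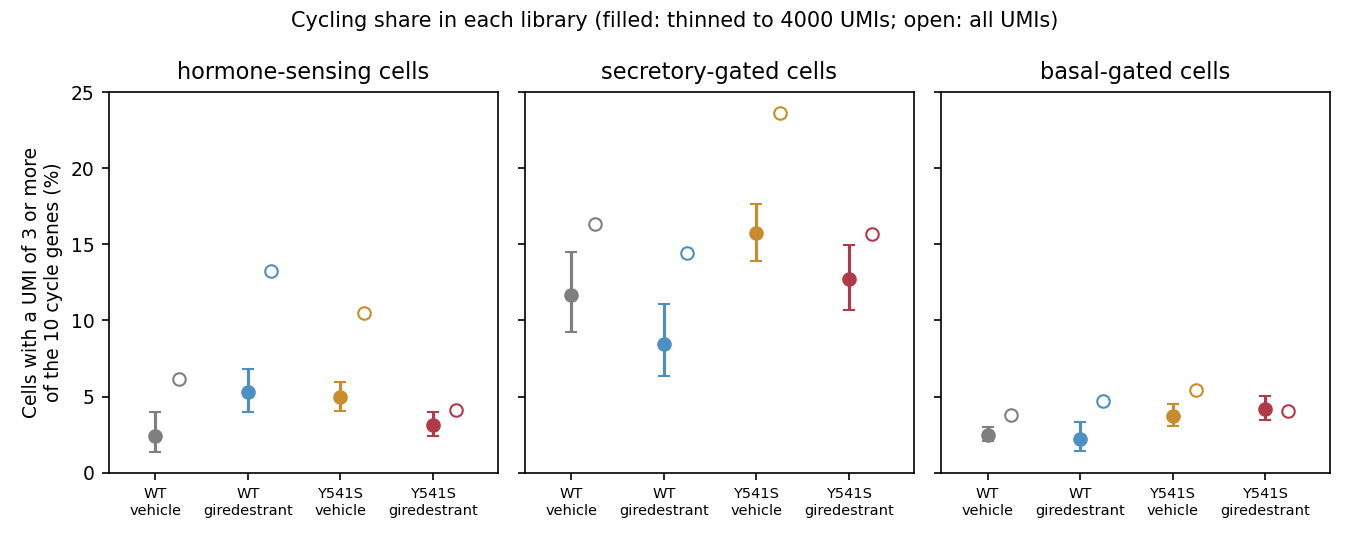
Percent of cells with a UMI of 3 or more of the 10 cycle genes (vertical axis) in each library (horizontal axis) for hormone-sensing, secretory-gated and basal-gated cells. Filled points are cells thinned to 4000 UMIs with exact 95% binomial intervals, and open points use all UMIs. Hormone-sensing cells lie between 2.43% and 5.28% after thinning, secretory-gated cells between 8.48% and 15.7%, and basal-gated cells between 2.24% and 4.19%.

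In the same libraries the thinned cycling share of secretory-gated cells was 11.7%, 8.48%, 15.7% and 12.7%, above that of hormone-sensing cells in all 4 libraries, with intervals that overlapped only in wild-type giredestrant (6.34% to 11.1% for secretory-gated cells). The basal-gated share was 2.51%, 2.24%, 3.75% and 4.19%. Cells with markers of fibroblasts, which are not part of the epithelium, were read beside them. Such cells may themselves divide, so their share is not a measure of free RNA. Over all libraries and after thinning to 4000 UMIs, 2 of 118 fibroblast-marker cells held 3 or more of the 10 genes (1.69%, 0.206% to 5.99%), both in Y541S vehicle (2 of 29). The median depths of fibroblast-marker cells before thinning were 7715 to 16199 UMIs. Among thinned cells with macrophage markers 1 of 34 did (2.94%). The fibroblast upper limit of 5.99% lies above the thinned hormone-sensing shares of all 4 libraries (2.43%, 5.28%, 4.95% and 3.12%). With 118 cells that may divide, this limit cannot place those shares against a background, and the part of free RNA was not tested.

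The 10 cycle genes chose the cells, so their levels are a description. Mki67, the proliferation antigen Ki-67, stood at 105, 102, 123 and 428 counts per 1000000 UMIs (CPM) in the summed cycling cells of the 4 libraries. Top2a, the topoisomerase that untangles DNA, stood at 269.7, 138, 300.5 and 514 CPM, and Cdk1, the kinase that drives entry into mitosis, at 141, 79.5, 174 and 134 CPM. Ube2c, which helps to destroy cyclins at the end of mitosis, stood at 266, 161, 383 and 355 CPM, and the kinetochore protein gene Cenpf at 117, 108, 168 and 377 CPM. The Y541S giredestrant library was the highest for Mki67, Top2a and Cenpf and the Y541S vehicle library for Ube2c and Cdk1. Cells just inside the rule, with 3 of the genes, numbered 5, 36, 43 and 21 and had a median of 4, 5, 5 and 5 UMIs of the 10 genes. Cells just outside it, with 2 genes, numbered 17, 88, 78 and 44, with medians of 2, 3, 2 and 2.

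Many late cell cycle genes are known to be switched on together through promoter elements named CCAAT and CHR. RefSeq (GRCm38.p6) gave a window of 250 bases before the start of 8 of the 10 genes. These windows are shown because the rule rests on genes that move together: CCAAT, or ATTGG on the other strand, and CHR, searched as TTTGAA or TTTAAA on both strands, are in capitals. CCAAT was found 2 or more times in 7 of the 8 windows, against 10.1% of all 32851 windows, and 1 or more times in 33.8% of all windows. CHR letters were found in all 8, against 25.2% of all windows, and both motifs in 7, against 8.78%. The 5 windows below show the range, from 6 CCAAT matches in Top2a and in Ube2c to none in Birc5, whose CHR match lies 220 bases before the start. In Ube2c a pair of CCAAT matches on opposite strands overlap. A match is a description of the letters and not a site.
Mki67 (chr7:135716380-135716629, reverse strand): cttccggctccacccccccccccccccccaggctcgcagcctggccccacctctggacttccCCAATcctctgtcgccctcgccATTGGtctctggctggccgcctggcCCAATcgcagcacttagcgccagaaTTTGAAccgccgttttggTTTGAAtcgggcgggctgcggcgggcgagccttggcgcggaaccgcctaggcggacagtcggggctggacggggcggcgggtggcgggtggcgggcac
Top2a (chr11:99024190-99024439, reverse strand): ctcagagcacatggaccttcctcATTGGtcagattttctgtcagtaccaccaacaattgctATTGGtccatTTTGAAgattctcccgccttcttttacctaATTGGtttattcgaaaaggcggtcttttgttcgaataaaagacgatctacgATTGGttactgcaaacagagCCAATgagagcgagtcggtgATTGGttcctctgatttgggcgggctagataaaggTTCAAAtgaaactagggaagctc
Ube2c (chr2:164769679-164769928, forward strand): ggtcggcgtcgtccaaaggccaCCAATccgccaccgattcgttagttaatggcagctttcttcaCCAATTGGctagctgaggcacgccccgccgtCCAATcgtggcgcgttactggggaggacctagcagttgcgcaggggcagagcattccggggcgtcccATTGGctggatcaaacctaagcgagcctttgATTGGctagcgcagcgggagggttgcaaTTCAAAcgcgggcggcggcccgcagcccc
Ccnb1 (chr13:100786487-100786736, reverse strand): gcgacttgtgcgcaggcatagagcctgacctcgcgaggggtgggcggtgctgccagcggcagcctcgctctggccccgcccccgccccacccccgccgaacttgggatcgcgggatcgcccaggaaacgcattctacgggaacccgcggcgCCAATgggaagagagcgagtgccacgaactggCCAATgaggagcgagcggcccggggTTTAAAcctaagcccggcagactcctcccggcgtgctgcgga
Birc5 (chr11:117848987-117849236, forward strand): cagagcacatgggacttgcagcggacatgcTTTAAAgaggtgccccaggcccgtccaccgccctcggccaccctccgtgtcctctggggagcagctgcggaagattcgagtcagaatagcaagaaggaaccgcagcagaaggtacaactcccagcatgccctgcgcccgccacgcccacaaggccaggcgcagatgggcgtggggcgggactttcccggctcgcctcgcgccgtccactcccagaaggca

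The cells differed among themselves. By the number of cycle genes they held, 12, 76, 91 and 44 cells had 3 to 5, 12, 33, 52 and 18 had 6 to 8, and 15, 29, 75 and 39 had 9 or 10. Genes outside the rule were read to see what these bins held. A list of 48 other mitosis genes summed to 756, 761, 852 and 1611 CPM in the cells with 3 to 5 cycle genes, and to 600, 562, 643 and 618 CPM in non-cycling cells. In cells with 9 or 10 cycle genes it summed to 5055, 5599, 6370 and 6894 CPM. A list of 49 S-phase genes summed to 933, 921, 1004 and 1987 CPM with 3 to 5 cycle genes and to 3745, 3507, 3689 and 2009 CPM with 9 or 10, against 307, 564, 365 and 464 CPM in non-cycling cells. In 3 libraries both lists were highest in the top bin. In Y541S giredestrant the S-phase sum was highest, 2828 CPM, in the 18 cells with 6 to 8 genes.

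The lowest bin went only part of the way with the name "cycling". After thinning to 4000 UMIs, the median cell with 3 to 5 cycle genes held a UMI of 3, 2, 2 and 5 of the 48 other mitosis genes, and the median non-cycling cell of 1, 2, 2 and 2. Wild-type giredestrant and Y541S vehicle thus had the same median in that bin as in non-cycling cells, and 76 of 138 and 91 of 218 of their cycling cells lay in it. The share of cells with 5 or more S-phase genes differed in the same bin: it was 16.7%, 21.6%, 24.4% and 46.3%, against 1.03%, 5.92%, 1.12% and 3.69% in non-cycling cells. With 9 or 10 cycle genes the median cell held 13, 15, 15 and 18 of the other mitosis genes. Values by bin are given below where a gene was read from them.

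**Figure D2:**
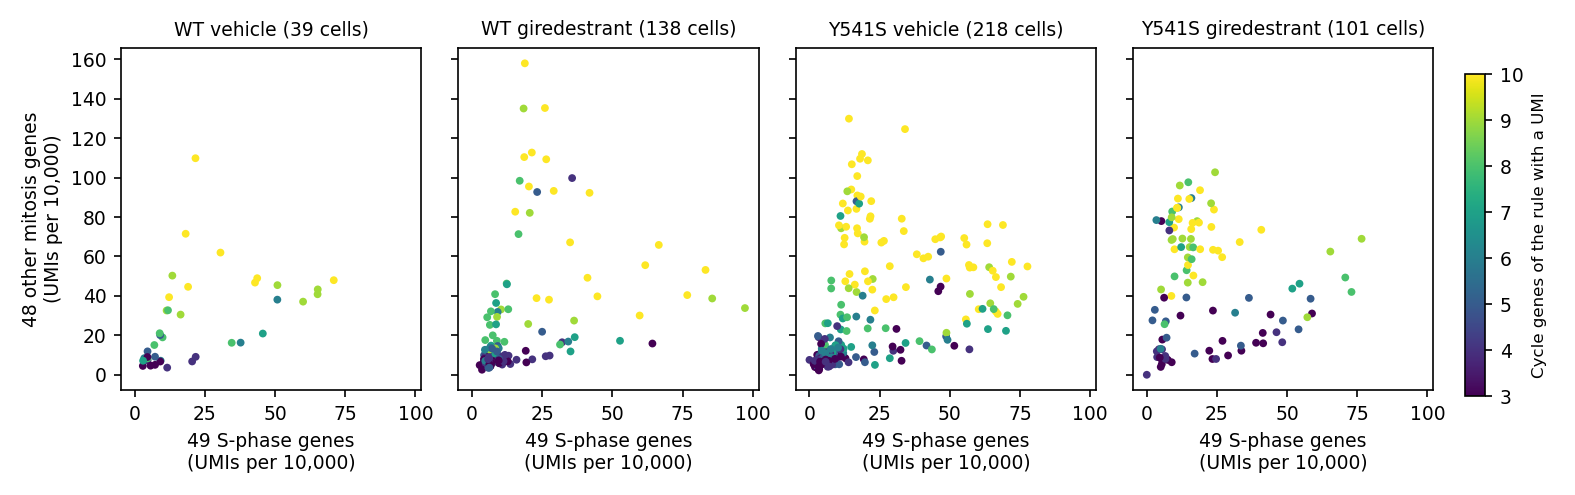
Each point is 1 cycling hormone-sensing cell, with its UMIs per 10000 in 49 S-phase genes (horizontal axis) and in 48 mitosis genes outside the rule (vertical axis), coloured by how many of the 10 cycle genes it held. The panels are the 4 libraries, with 39, 138, 218 and 101 cells. Cells with 9 or 10 cycle genes lie high on 1 or both axes, and many cells with 3 to 5 lie near the origin in wild-type giredestrant and Y541S vehicle.

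Genes were compared on sums of UMIs over cells in each library, as the log2 ratio of CPM in cycling over non-cycling cells minus the median gene of that library, called the relative log2 ratio. The median gene itself lay at 0.148, 0.0031, 0.129 and 0.029. A gene was measured if its counts were high enough in either sum, so genes can pass through the cells in which they are high, and the measured genes of a list are not the whole list. At least 1.5-fold higher were 17%, 8.86%, 13.3% and 10.2% of all measured genes, and at least 1.5-fold lower 16.3%, 7.57%, 10.8% and 7.47%. These shares are the background for the counts below, which carry no test.

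Mitosis genes outside the rule had the highest median of the lists in every library. At least 1.5-fold higher were 37 of 38, 43 of 46, 46 of 47 and 41 of 41 measured members, with medians of 5.43, 3.68, 4.83 and 4.84 against 0 for the median gene by construction. Hmmr, a spindle protein, stood at 72.8 against 0.220, 55.2 against 0.0639, 81.7 against 0.115 and 129.6 against 0.110 CPM in cycling against non-cycling cells, and Cenpe, a kinetochore motor, at 53.5 against 0.0733, 66.2 against 0.575, 78.1 against 0.144 and 200.5 against 0.826 CPM. Ccna2, the cyclin of S phase and G2, stood at 40.1 against 0.367, 27.7 against 0.192, 39.2 against 0.259 and 43.8 against 0.275 CPM. All of these were near 0 in the non-cycling cells of every library. Plk1, the Polo kinase of mitosis, had no UMI in non-cycling cells of wild-type vehicle, and its relative log2 ratio was 6.40, 8.64 and 7.33 in the other libraries.

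Of the S-phase list, 38 of 38, 47 of 49, 48 of 49 and 38 of 39 measured members were at least 1.5-fold higher, with medians of 3.50, 2.27, 3.13 and 2.42. Mcm5, a subunit of the replicative helicase, had relative log2 ratios of 5.97, 4.82, 5.08 and 4.15. Rrm2, which makes deoxynucleotides, stood at 108 against 1.98, 38.5 against 1.15, 82.7 against 0.862 and 44.4 against 1.82 CPM, and Tyms, which makes thymidylate, at 71.7 against 3.37, 51.9 against 9.46, 63.01 against 4.46 and 44.9 against 5.73 CPM. Pcna, the sliding clamp, was already present in non-cycling cells and stood at 70.6 against 18.7, 56.5 against 20.5, 76.8 against 19.98 and 46.7 against 16.03 CPM, with relative log2 ratios of 1.77, 1.46, 1.81 and 1.51. The wild-type giredestrant cells had the lowest median of both the mitosis and the S-phase list.

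DNA repair genes were at least 1.5-fold higher for 10 of 10, 18 of 18, 19 of 19 and 11 of 11 measured members of 20, with medians of 3.95, 1.97, 3.55 and 3.49. Replication-dependent histone genes were higher for 6 of 8, 9 of 14, 11 of 14 and 8 of 9 measured members and lower for 1, 1, 1 and 0. Their list summed to 919 against 687, 801 against 667, 805 against 597 and 711 against 224 CPM, so non-cycling cells held much of this signal too. The kit primes on poly(A) tails that most histone messages lack. Chromatin and tubulin genes of dividing cells were higher for 25 of 26, 20 of 27, 25 of 27 and 22 of 26. H2afz, a histone variant, stood at 1367 against 149.5, 1122 against 207, 1439 against 201 and 1029 against 193 CPM, and Stmn1, which destabilises microtubules, at 523 against 22.8, 436 against 22.7, 695 against 67.5 and 622 against 102 CPM. Both were high in all 4 cycling sums.

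**Figure D3:**
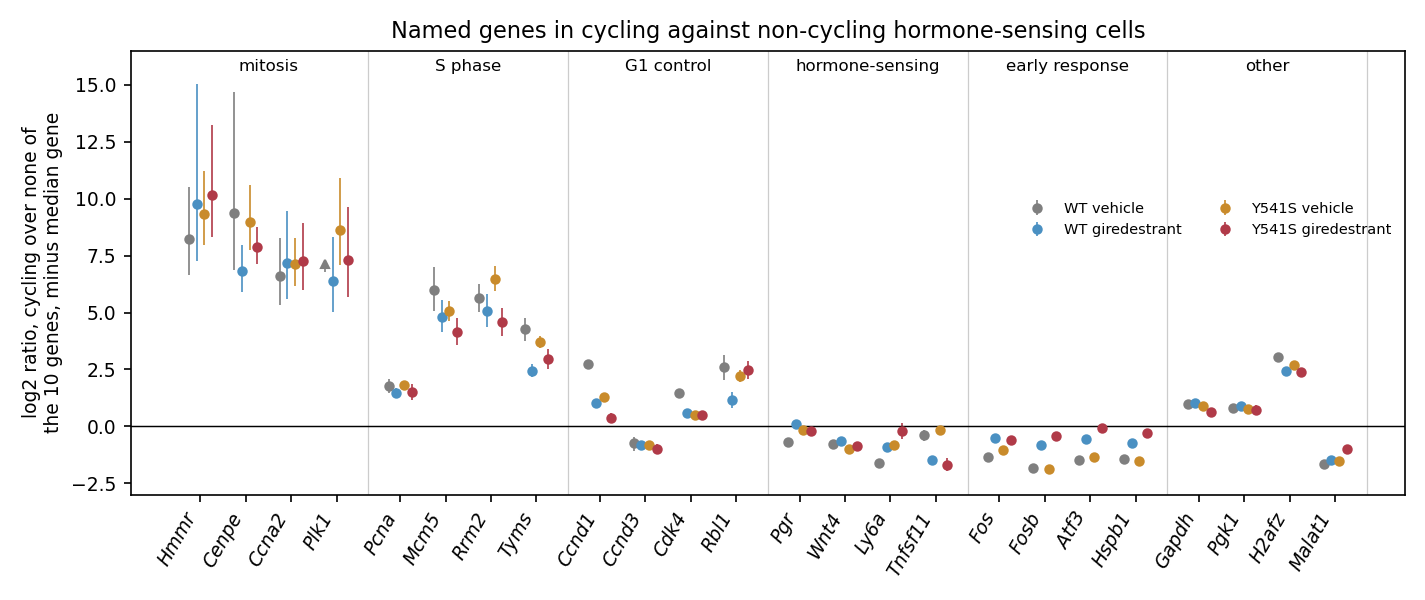
Relative log2 ratio of cycling over non-cycling hormone-sensing cells (vertical axis, minus the median gene) for named genes in 6 groups, 1 point per library with its exact 95% counting interval. A triangle marks a lower limit, where non-cycling cells held no UMI. Mitosis and S-phase genes lie far above 0, Ccnd3, Wnt4 and Malat1 below 0 in all 4 libraries, and Tnfsf11 furthest below 0 with giredestrant.

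In all 4 libraries 7380 genes outside the rule were measured, of which 157 (2.13%) were at least 2-fold higher and 7 (0.0949%) at least 2-fold lower in every library. At 2-fold in single libraries, 7.9%, 4.15%, 6.3% and 4.52% of genes were higher and 6.5%, 2.01%, 3.45% and 2.16% lower. Of the 157, 83 belonged to the 5 lists just described (33 mitosis, 28 S-phase, 9 chromatin and tubulin, 5 histone and 8 repair genes), and 74 to none of them. The 12 with the highest value in their lowest library were Hmmr, Pbk, Nuf2, Cdca3, Cenpe, Esco2, Ccna2, Bub1, Pclaf, Kif4, Plk1 and Melk. They act at the kinetochore (Nuf2, Bub1, Cenpe), on the spindle (Hmmr, Kif4), in sister chromatid cohesion (Esco2) and at the replication fork (Pclaf).

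The 7 lower genes were Snhg11, 9530026P05Rik, Galnt18, Gm20417, Ctsf, Sptlc3 and Malat1. Malat1, a long noncoding RNA kept in the nucleus, stood at 10253 against 28789, 8428 against 23098, 6932 against 18159.8 and 20705 against 40974 CPM, with relative log2 ratios of -1.64, -1.46, -1.52 and -1.01. Ctsf, a lysosomal protease, had ratios of -2.08, -1.08, -1.87 and -2.08, and Sptlc3, an enzyme of sphingolipid synthesis, -2.12, -1.51, -1.66 and -1.05. Snhg11, also noncoding, had ratios of -2.13, -1.45, -2.41 and -2.13. The mitochondrial share of UMIs was a little lower in cycling cells, with medians of 1.79% against 2.28% in wild-type vehicle and 1.85% against 2.001% in wild-type giredestrant.

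Genes that control entry from G1 differed less between the cells. Of 29 listed genes, 7 of 16, 9 of 25, 16 of 27 and 6 of 21 measured members were at least 1.5-fold higher and 3, 2, 3 and 2 at least 1.5-fold lower. The median of the list in Y541S vehicle, where the most members were higher, was 0.89, but with cells thinned to 4000 UMIs before all steps it was -0.14. The D cyclins, which activate Cdk4 and Cdk6, did not go together. Ccnd1 stood at 233 against 31.7, 234 against 114, 194 against 72.5 and 107 against 81.02 CPM in cycling against non-cycling cells. Its relative log2 ratio was 2.73 (95% interval 2.53 to 2.92), 1.04 (95% interval 0.94 to 1.13), 1.29 (95% interval 1.20 to 1.38) and 0.37 (95% interval 0.15 to 0.60), so that non-cycling cells of wild-type vehicle were the low ones and cycling cells differed by less. Ccnd3 was lower in cycling cells of every library, at 51.4 against 77.9, 229.9 against 399, 82.5 against 133 and 104 against 202 CPM, with ratios of -0.75, -0.80, -0.81 and -0.99. Ccnd2 was measured in Y541S giredestrant alone, where it stood at 91.02 against 144 CPM.

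Cdk4 had relative log2 ratios of 1.47, 0.59, 0.50 and 0.51, highest in wild-type vehicle. Rbl1 (p107), a pocket protein that represses E2F targets, had ratios of 2.60, 1.15, 2.23 and 2.48. Cdkn3, a phosphatase of late cell cycle kinases, stood at 33.2, 36.4, 40.1 and 40.3 CPM in cycling cells. The same Ccnd1 ratio was 0.35, 0.80, 0.35 and 0.07 in secretory-gated cells and 1.5, 2.44, 1.04 and 1.04 in basal-gated cells, cycling over non-cycling.

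The lineage genes of the rule were present in the cycling cells at other levels than in the non-cycling ones. Prlr, the prolactin receptor, stood at 1169 against 1705, 2722 against 4978, 1506 against 2363 and 599.7 against 1189 CPM and was the lower of the pair in all 4 libraries. Esr1 stood at 176 against 346, 456 against 609, 222 against 296 and 327 against 404 CPM, also lower in all 4. Foxa1, the pioneer factor of estrogen receptor binding, stood at 84.5 against 75.7, 204 against 168, 114 against 91.6 and 108 against 84.9 CPM, with relative log2 ratios of 0.01 (95% interval -0.24 to 0.25), 0.27 (95% interval 0.18 to 0.36), 0.19 (95% interval 0.09 to 0.30) and 0.31 (95% interval 0.09 to 0.53), so that the level differed by less than counting error in wild-type vehicle and was a little higher in cycling cells of the other 3 libraries. Areg, the EGF-family ligand induced by estrogen, stood at 1521 against 1866, 3092 against 2289, 2673 against 3185 and 2748 against 2634 CPM. It was lower in cycling cells of both vehicle libraries and higher in those of wild-type giredestrant. In Y541S giredestrant its relative log2 ratio was 0.03 (95% interval -0.01 to 0.08), a difference within counting error. Because the gate sums these 4 genes, the values describe how cells met it.

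Outside the rule, 22 identity genes of hormone-sensing cells had medians of -0.58, -0.11, -0.29 and -0.01. At least 1.5-fold lower were 9 of 19, 4 of 21, 4 of 20 and 2 of 18 measured members, and 1, 1, 0 and 2 were higher. The luminal keratin Krt8 stood at 3128 against 3351, 3773 against 3618, 3443 against 4441 and 1601 against 1530.4 CPM and Epcam, the surface protein of the sort, at 1869 against 1853, 2319.6 against 2503, 2341 against 2217 and 1812 against 1889 CPM, so both remained abundant in cycling cells. Ly6a, the Sca-1 antigen, had relative log2 ratios of -1.60, -0.92, -0.81 and -0.19 and Cldn4, a tight junction protein, -1.48, -0.03, -0.70 and 0.01. Cited1, a transcriptional co-regulator, stood at 232 against 509, 1345 against 902, 268 against 207 and 118 against 75.8 CPM, lower in wild-type vehicle and higher in the other 3 libraries.

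Pgr, the progesterone receptor, stood at 292 against 419, 96.2 against 89.8, 459.8 against 463 and 247 against 277 CPM. Its relative log2 ratio was -0.67 (95% interval -0.80 to -0.54) in wild-type vehicle and lay between -0.19 and 0.10 in the other libraries. Estrogen response genes had medians of -0.28, 0.07, -0.08 and -0.14, with 2, 2, 3 and 3 members higher and 7, 0, 2 and 1 lower of 18, 18, 20 and 18 measured. Greb1, a direct estrogen receptor target, stood at 199 against 265, 4.76 against 3.58, 83.7 against 72.3 and 80.1 against 97.8 CPM, and was below 5 CPM in both kinds of cell in wild-type giredestrant.

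Among the secreted signals and progesterone targets of the lineage, 3 of 8, 4 of 9, 2 of 9 and 5 of 9 measured members were at least 1.5-fold lower, where 16.3%, 7.57%, 10.8% and 7.47% of all genes were. At least 1.5-fold higher were 0, 0, 0 and 1 members, and the medians were -0.35, -0.46, -0.19 and -0.78. None of the 8 genes measured in all libraries was 2-fold higher or 2-fold lower in every one. Wnt4, a ligand that acts on basal cells, was lower in all 4 libraries at 159 against 247, 303 against 472, 163 against 301 and 248 against 439 CPM, with relative log2 ratios of -0.79, -0.65, -1.01 and -0.85. Tnfsf11 (RANKL), the main progesterone-induced mitogen for neighbouring cells, stood at 86.2 against 103, 41.8 against 115, 60.6 against 61.2 and 61.1 against 192 CPM. Its relative log2 ratio was -1.46 (95% interval -1.63 to -1.28) in wild-type giredestrant and -1.68 (95% interval -1.98 to -1.41) in Y541S giredestrant, and -0.40 and -0.14 with vehicle. The lower level in cycling cells was thus larger in both giredestrant libraries than in either vehicle library.

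Shares of cells were also read in each library for Tnfsf11, Upk3a, Sbp, Klk1, Calca, Krt15, Krt14, Krt6a, Penk, Mgat4c, Il33, Ly6a, Pgr, Lcn2 and Greb1. The intervals with and without a UMI lay apart only for Tnfsf11 in wild-type giredestrant, Upk3a in both giredestrant libraries and Krt6a in Y541S vehicle. Among wild-type giredestrant cells thinned to 4000 UMIs, 1 of 163 cells with a Tnfsf11 UMI was cycling (0.613%, 0.016% to 3.37%), against 53 of 859 without one (6.17%, 4.66% to 7.99%). In Y541S giredestrant it was 11 of 566 (1.94%) against 52 of 1454 (3.58%), with overlapping intervals. In Y541S vehicle the shares were 4.90% and 4.96%. In wild-type vehicle 1 of 119 cells with Tnfsf11 and 14 of 498 without were cycling (0.840% and 2.81%), with overlapping intervals.

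Immediate early and heat shock genes respond quickly to growth factors and to cell dissociation. At least 1.5-fold lower were 11, 4, 9 and 1 of the 15 genes, with medians of -0.70, -0.34, -0.76 and -0.27, and none was 1.5-fold higher. Fos, an AP-1 subunit, had relative log2 ratios of -1.34, -0.53, -1.05 and -0.61, Fosb of -1.82, -0.83, -1.87 and -0.41 and Atf3 of -1.46, -0.57, -1.35 and -0.08. Hspb1, a small heat shock protein, had -1.43, -0.74, -1.50 and -0.27. The ratios of Fos, Fosb, Atf3 and Hspb1 were all lowest with vehicle, and Y541S giredestrant had the value nearest 0 for Fosb, Atf3 and Hspb1. In cycling secretory-gated cells the medians of the list were -0.67, -0.39, -0.54 and -0.35, and in basal-gated cells -0.59, -0.89, -0.11 and -0.03. The dissociation time of each library is not in the labels, and its part in these values was not tested.

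Genes of glycolysis were at least 1.5-fold higher for 5 of 12, 5 of 13, 5 of 13 and 3 of 13 measured members and at least 1.5-fold lower for 1, 0, 0 and 3. The medians were 0.29, 0.47, 0.35 and 0.12, and in Y541S giredestrant as many members were lower as higher. Gapdh stood at 945 against 437, 987 against 477, 917 against 448 and 498 against 311 CPM, with relative log2 ratios of 0.96, 1.04, 0.91 and 0.65. Pgk1 and Tpi1, 2 enzymes of the same pathway, had ratios of 0.79, 0.89, 0.75 and 0.74 and of 0.79, 0.75, 0.73 and 0.75. Hsp90b1, a chaperone of the endoplasmic reticulum, had ratios of 0.50, 0.78, 0.75 and 0.54, and Ctsd, the lysosomal protease cathepsin D, -1.29, -0.47, -0.94 and -0.47. Unfolded protein response genes as a list had medians of -0.17, 0.21, 0.19 and -0.14, cholesterol synthesis genes of 0.13, 0.15, 0.40 and -0.11, and p53 targets of 0.20, 0.07, 0.04 and -0.05. EGF family ligands and receptors had medians of -0.38, -0.02, -0.39 and -0.09, with Hbegf, a ligand, at 28.4 against 103, 41.2 against 42.1, 39.03 against 89.6 and 271 against 331 CPM.

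A list of 27 genes, chosen because each stood out in 1 library of these data, was read in cycling against non-cycling cells. At least 1.5-fold lower in cycling cells were 11 of 16, 8 of 14, 13 of 21 and 9 of 13 measured genes, and 5, 2, 3 and 1 were higher. The list was chosen on these samples, so its counts are a description.

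Upk3a, a uroplakin of the urothelial membrane, was 1 of the 2 genes of the list that were higher in cycling cells of wild-type giredestrant. There it stood at 794 against 139 CPM, a relative log2 ratio of 2.51 (95% interval 2.44 to 2.58), and a UMI of it was found in 118 of the 138 cycling cells. The cell with the most Upk3a held 5.12% of its UMIs. By bin it stood at 139, 889.8, 569 and 794 CPM in cells with 0, 3 to 5, 6 to 8 and 9 or 10 cycle genes, and was high in every bin with 3 or more. After thinning, 58.1% against 10.8% of cycling and non-cycling cells held a UMI of Upk3a.

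Read the other way, 13.9% of the wild-type giredestrant cells with a Upk3a UMI were cycling (32 of 230, 9.72% to 19.1%), against 2.78% of those without (22 of 792, 1.75% to 4.18%), both after thinning. In Y541S giredestrant, with far less Upk3a, the shares were 12.96% (7 of 54, 5.37% to 24.9%) and 2.85% (56 of 1966, 2.16% to 3.68%). In both giredestrant libraries the intervals did not overlap. In Y541S vehicle 2 of 14 cells with a Upk3a UMI were cycling, too few to place, and in wild-type vehicle no thinned cell held one.

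Fxyd2 and Kcnh1, also of the list, were lower in cycling cells of wild-type giredestrant. Fxyd2, a subunit of the sodium pump, stood at 188 against 570.3 CPM, and Kcnh1, a potassium channel gene, at 206 against 377 CPM. Sbp, a spermine-binding protein gene, stood at 88.02 against 229 CPM there. Although the Sbp level was lower in cycling cells, a UMI of it was found in more of them after thinning (15.4% against 5.23%), so its order differed between level and share and none is read. Stc2, a secreted glycoprotein outside the list, stood at 140.4 against 66.4 CPM and was higher in cycling cells of that library. Nrxn3, a cell adhesion gene, was lower there at 341 against 1074 CPM and in Y541S vehicle at 598 against 1574 CPM, but not in wild-type vehicle at 335 against 198 CPM.

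The next genes were singled out from the same list after their values were seen, because they were low in cycling cells with vehicle. Klk1, a tissue kallikrein, stood at 0.535 against 483 CPM in wild type and 0.979 against 19.6 CPM in Y541S, and its near-identical neighbour Klk1b1 at 1.61 against 139 CPM in wild type. The Klk1 value of cycling cells was 1 UMI in wild-type vehicle, a relative log2 ratio of -9.97 (95% interval -15.27 to -7.49). After thinning, 0 of 48 cells with a Klk1 UMI were cycling, which allows up to 7.40%, against 15 of 569 without one (2.64%), so no difference in share was detectable at this depth. Reads of the kallikrein genes can be split between copies, so single members are uncertain. Lrg1, a secreted acute-phase glycoprotein, stood at 28.4 against 207 CPM in wild type and 15.9 against 135 CPM in Y541S, Sftpd, a collectin, at 43.9 against 321 CPM and 29.98 against 116 CPM, and Saa1, an acute-phase protein, at 8.56 against 178 CPM and 2.32 against 36.7 CPM. Muc13, a membrane mucin, stood at 28.4 against 340.0 CPM and 22.3 against 76.4 CPM. In wild-type vehicle Muc13 was at 340.0, 9.64, 32.8 and 37.1 CPM in cells with 0, 3 to 5, 6 to 8 and 9 or 10 cycle genes, low in every bin of the 39 cells.

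**Figure D4:**
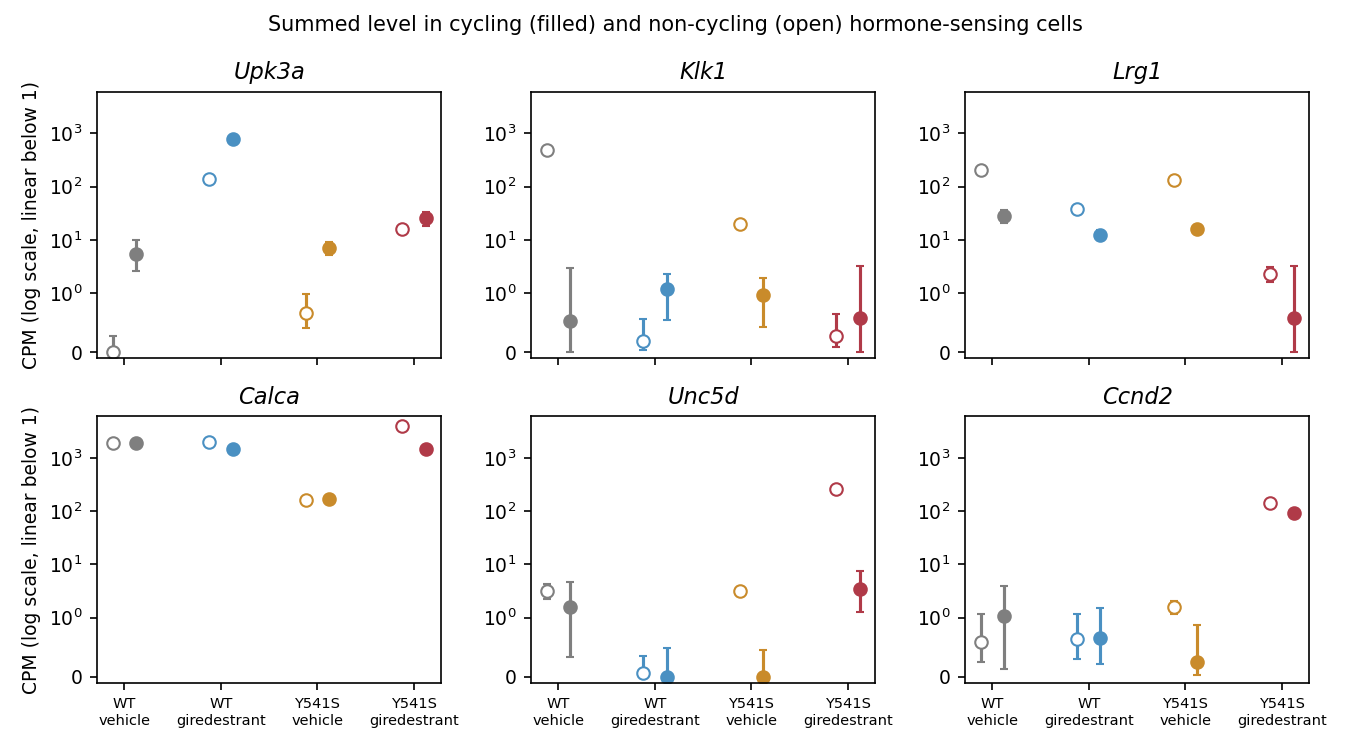
CPM (vertical axis, log scale above 1 and linear below) of 6 genes in the summed non-cycling (open) and cycling (filled) hormone-sensing cells of each library, with exact Poisson 95% intervals. Upk3a is higher in cycling cells of wild-type giredestrant (794 against 139 CPM), while Klk1 and Lrg1 with vehicle and Calca and Unc5d in Y541S giredestrant are lower.

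In Y541S giredestrant 5 genes, of which Unc5d, Penk and Mgat4c are of the list, were read in the same way. Calca, the calcitonin gene, stood at 1448 against 3904 CPM, with 3904, 2494, 451 and 879.9 CPM in cells with 0, 3 to 5, 6 to 8 and 9 or 10 cycle genes. Calca was not particular to this library: after thinning, 257 of 617, 685 of 1022, 423 of 2020 and 1105 of 2020 hormone-sensing cells held a UMI of it. Unc5d, a netrin receptor gene, stood at 3.46 against 261 CPM, a relative log2 ratio of -6.27 (95% interval -7.72 to -5.15). Penk, the enkephalin precursor, stood at 67.4 against 194 CPM, Mgat4c, a glycosyltransferase gene, at 577 against 1023 CPM, and Erbb4, a neuregulin receptor, at 48.97 against 149.5 CPM. The levels of all 5 were lower in cycling cells of this library. After thinning, 2.35% of its cells with a Calca UMI were cycling, against 4.04% of those without. For Penk the shares were 1.86% and 3.41% and for Mgat4c 2.61% and 4.59%, with overlapping intervals for each gene. With vehicle the Calca order was the other way, at 3.89% and 1.39% in wild type and 6.15% and 4.63% in Y541S, also with overlapping intervals.

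Other genes of the Y541S giredestrant library were within 1.5-fold in the 2 kinds of cell, relative to the median gene. Egfr, the EGF receptor, stood at 385 against 324 CPM, Krt6a, a stress keratin, at 1005 against 1404 CPM, the alarmin Il33 at 264 against 330.3 CPM and the carboxypeptidase Cpe at 256 against 268 CPM. After thinning, 3.59% of cells with a Krt6a UMI were cycling, against 2.30% of those without. For Krt14, a basal keratin, the shares were 3.42% and 2.83%, with overlapping intervals for both genes. In Y541S vehicle, 17 of 636 cells with a Krt6a UMI were cycling (2.67%, 1.56% to 4.25%), against 83 of 1384 without (6.00%, 4.80% to 7.38%), and those intervals did not overlap.

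Markers of other cells moved with some of these values. The 12 basal markers outside the rule summed to 82.4, 27.4, 152 and 1952 CPM in cycling cells and 75.7, 73.8, 107 and 2308 CPM in non-cycling cells, so the high basal sum of Y541S giredestrant was in both. The 15 secretory markers summed to 660, 222, 421 and 520 CPM against 2474, 138, 790 and 460 CPM. At least 1.5-fold higher in cycling cells were 0 of 5, 6 of 8, 1 of 7 and 3 of 7 measured secretory markers, and 3, 0, 1 and 1 were lower. Wfdc18, a rule gene of the secretory gate, stood at 17.7 against 15.8, 93.04 against 18.8, 23.4 against 23.5 and 38.02 against 20.6 CPM. In wild-type giredestrant it was found in 44 of the 138 cells.

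The 7 MHC class II genes summed to 175 against 59.1 CPM in wild-type giredestrant and the 7 macrophage and dendritic markers to 32.4 against 6.91 CPM. H2-Aa, Cd74 and Lyz2 came mostly from 1 cell each, which held 77.4%, 89.02% and 71.1% of their UMIs. In cycling cells of the other libraries the macrophage sum was 2.14 to 2.32 CPM. Fibroblast markers summed to 172, 11.1, 144 and 9.22 CPM in cycling cells and 60.7, 38.9, 110 and 9.42 CPM in non-cycling cells, and 5, 1, 1 and 3 of the 7 were at 0 in cycling cells. In wild-type vehicle Dcn, the proteoglycan decorin, made up nearly all of the sum at 171 against 59.98 CPM, while the collagen genes Col1a1, Col1a2 and Col3a1 were at 0 in cycling cells. T and B lymphocyte markers summed to at most 3.75 CPM in either kind of cell. The part of these cells or of free RNA in the gene values was not tested.

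The libraries were also compared within cycling cells, and the 4 contrasts share libraries. With giredestrant over vehicle in wild type, 7.29% of genes were at least 2-fold higher and 7.07% lower, against 11.8% and 12.1% in non-cycling cells. In Y541S it was 9.14% and 7.76%, against 14.5% and 12.4%. Y541S over wild type gave 1.16% and 1.61% with vehicle, against 3.44% and 4.02%, and 10.8% and 9.85% with giredestrant, against 15.1% and 11.1%. With vehicle, 8.72% of genes in non-cycling cells were at least 1.5-fold higher in Y541S and 9.73% lower. Scaled by the summed total instead of the median gene, and without the rule genes, the split moved from 617 higher and 600 lower to 881 and 434 for giredestrant in wild type, and from 96 and 132 to 124 and 111 for Y541S with vehicle. The smaller sums of cycling cells left fewer genes measured, so the shares of the 2 kinds of cell are over different genes.

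In wild type, the 6 genes furthest above vehicle in giredestrant cycling cells were Upk3a, Kcnh1, Fgf12, H2-Aa, Sbp and Fxyd2. The relative log2 ratio of giredestrant over vehicle was 7.04 (95% interval 6.17 to 8.11) for Upk3a, 5.84 (95% interval 4.71 to 7.28) for Kcnh1 and 5.48 (95% interval 4.43 to 6.80) for Fxyd2. The 6 furthest below were D730048I06Rik, Sprr2g, Slc2a3, Cdh2, Slpi and Wisp2. Slpi, a secreted protease inhibitor, stood at 5.96 CPM with giredestrant and 789 CPM with vehicle, and Wisp2 (CCN5), an estrogen-induced matricellular protein, at 0.794 and 93.6 CPM. Of D730048I06Rik in wild-type vehicle, 1 cell held 65.8% of the UMIs.

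Summed over all cycling cells, the cycle lists were at lower levels in wild-type giredestrant than in wild-type vehicle. At least 1.5-fold lower were 20 of 44 mitosis genes outside the rule and 32 of 47 S-phase genes, and none was 1.5-fold higher, against 15.9% of all genes lower and 16.9% higher. The medians were -0.56 and -0.80. Unfolded protein response genes were lower for 10 of 13 in cycling cells (median -1.05) and for 13 of 14 in non-cycling cells (median -1.48, where 21.8% of all genes were lower and 21.5% higher). Immediate early genes were higher for 7 of 15, with a median of 0.41, and in non-cycling cells the median was -0.09. The 3-to-5-gene bin held more of the giredestrant cells than of the vehicle cells, 76 of 138 against 12 of 39. Within bins the summed mitosis level was not lower with giredestrant, at 761 against 756 CPM with 3 to 5 cycle genes, 1977 against 1647 CPM with 6 to 8 and 5599 against 5055 CPM with 9 or 10. The summed S-phase level was a little lower in each bin, at 921 against 933, 1456 against 1859 and 3507 against 3745 CPM. The bins count the rule's own cycle genes, so cells of a bin are already partly matched on mitosis genes. The part of bin make-up in the lower list levels was not tested.

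In Y541S, the 6 genes furthest above vehicle in giredestrant cycling cells were Gm28438, Anxa8, Mgat4c, Cbr2, Ccnd2 and Egfr. The relative log2 ratio was 8.48 (95% interval 6.60 to 11.54) for Ccnd2, 8.39 (95% interval 7.46 to 9.52) for Egfr and 8.82 (95% interval 7.93 to 9.88) for Mgat4c. The 6 furthest below were Sprr2g, Cxcl5, Fgg, Nrxn3, Wisp2 and Fam3b. Nrxn3 stood at 10.4 CPM with giredestrant and 598 CPM with vehicle. Cxcl5 is a chemokine, Fgg the gamma chain of fibrinogen and Anxa8 an annexin of stratified epithelia.

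Hormone-sensing identity genes were at least 1.5-fold lower for 13 of 18 in that contrast, with a median of -1.04 in cycling and -1.19 in non-cycling cells, against 20.3% of all genes lower in cycling and 24.6% in non-cycling cells. EGF family genes had a median of 1.57 in cycling and 1.78 in non-cycling cells, with 6 of 10 and 7 of 11 higher, against 19.1% and 23.7% of all genes. Keratins of mixed-lineage and stress states had medians of 2.12 over 6 measured genes and 1.05 over 10. The medians of these 3 lists thus had the same sign in both kinds of cell. Mitosis genes were at least 1.5-fold higher for 14 of 46 and lower for 2, and S-phase genes higher for 1 and lower for 13 of 46. The median cycling cell held 15457 UMIs with giredestrant and 35450 with vehicle, and the part of depth was not tested.

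Of the 4 contrasts, Y541S over wild type with vehicle had the fewest genes past 2-fold in cycling cells. Mitosis genes had a median of 0.17 and S-phase genes of -0.11, with 1 of 45 and 0 of 49 higher and 0 and 1 lower, against 5.21% of all genes higher and 5.17% lower. The 6 genes furthest above wild type were Cxcl2, Hpgd, Trpc6, Krt15, Sprr1a and Cdkn2a, with relative log2 ratios of 2.87 (95% interval 2.35 to 3.43) for Krt15, a basal keratin, and 2.54 (95% interval 1.47 to 3.87) for Cdkn2a, which encodes inhibitors of Cdk4 and of Mdm2. The 6 furthest below were Pnmt, Ryr3, Klhl29, Rsad2, Plcl1 and Gm16685. Rsad2, an interferon-induced gene, and Pnmt, the enzyme that makes adrenaline, each came mostly from 1 wild-type cell, which held 81.8% and 85.1% of their UMIs.

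With giredestrant, Y541S over wild type had 38 of 46 mitosis genes at least 1.5-fold higher in cycling cells and 1 lower, with a median of 1.13, against 20.8% of all genes higher and 21.9% lower. S-phase genes were higher for 14 of 45, with a median of 0.25. The cycling call used all UMIs, and the median cycling cell held 15457 UMIs in Y541S and 43320 in wild type. With 3 to 5 cycle genes the summed mitosis level was 1611 against 761 CPM. It was 5035 against 1977 CPM with 6 to 8 and 6894 against 5599 CPM with 9 or 10. The part of depth in these values was not tested. In non-cycling cells 24.3% of genes were 1.5-fold higher and 22.8% lower, and 10 of 32 mitosis genes were higher. The 6 genes furthest above wild type were Gm28438, Ifi202b, Mgat4c, Cd109, Cpe and Trp63, the last a transcription factor of basal cells, with a relative log2 ratio of 9.37 (95% interval 7.81 to 11.65) for Cpe. The 6 furthest below were Fgb, Gm4951, Fgg, Ido1, Nxf7 and Hba-a1. Fgg, the gamma chain of fibrinogen, stood at 2.88 CPM in Y541S and 343 CPM in wild type, and Ido1, which breaks down tryptophan, at 0.576 and 48.97 CPM. Ifi202b differs between mouse strains, and the labels give no strain.

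Core mitosis genes were higher in the cycling cells of all 3 gated lineages. In cycling secretory-gated cells (760 in all) measured mitosis genes had medians of 5.04, 4.96, 4.40 and 3.89 over non-cycling cells of the lineage. In cycling basal-gated cells (565 in all) the medians were 5.89, 5.59, 6.14 and 5.90. The hormone-sensing median of 3.68 in wild-type giredestrant was below both other lineages of that library, while in the other libraries it lay between 4.83 and 5.43. Summed over cycling cells, mitosis genes stood at 2279.9 CPM in hormone-sensing, 4822 CPM in secretory-gated and 4097 CPM in basal-gated cells of wild-type giredestrant. The hormone-sensing sum was also lowest in wild-type vehicle (2973 against 4134 and 4233 CPM) and Y541S vehicle (3551 against 4441 and 4854 CPM). In Y541S giredestrant, at 4550 CPM, it lay between 3646 CPM in secretory-gated and 5471 CPM in basal-gated cells. The lineages differed in depth, and its part was not tested.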

How the data were processed

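Single cells from 4 EpCAM-sorted mammary libraries were measured. Per the file headers the authors made the deposited matrices with Cell Ranger 6.0.1, and the values are raw UMI counts per gene and barcode, not normalised. The submitters' processing notes name GRCm38. The annotation release and the handling of introns are not given in the sources used here. Other text in the deposited files names the barcodes and the symbols of 52636 genes. No per-sample column was left unused (0).

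The cells, genes and lists were chosen with earlier results of these data known. Libraries held 8114, 3667, 7812 and 10469 barcodes (wild-type vehicle, wild-type giredestrant, Y541S vehicle, Y541S giredestrant) and 98223195, 84215237, 132660456 and 70781982 UMIs. The cell filters and gates are those of the rule in the text. UMIs were summed per library and kind of cell with numpy 2.4.6, scipy 1.17.1 and pandas 2.3.3. A gene was measured if the mean of the CPM values, times the smaller total, came to 20 or more counts, a floor of 3 counts stood in for a sum of 0, and lists used 1.5-fold and genes 2-fold. Ratios carry exact conditional binomial intervals. The ratio code was tested on simulated counts. Where a symbol stood in 2 rows (101), the row with the lowest identifier kept it and the other went by its identifier. Of 468 list genes, 465 were matched.

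Named genes are the 22 rule genes, list members, the 12 genes furthest each way by the value nearest 0 over the 4 libraries, of which the text names those past 2-fold, and the 6 furthest each way per contrast. Genes singled out from the lists, and the bins of cycle genes, were chosen after their values were seen. Scrublet (Scanpy 1.11.5) marked 0.028%, 0.561%, 3.20% and 3.09% of cells by its automatic threshold, of which the first is too low for a working call. The highest scores were instead taken at 0.8% per 1000 cells, as an alternative without 401, 73, 417 and 595 cells. Alternatives were thinning, filters, gates, cycle gene counts, folds and count minimums.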

Additional observations from a re-analysis of the deposited data

How the results depend on the processing

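No paired analysis was possible because each group is 1 library and the labels give no replicate numbers, and leaving out a replicate would leave a group empty. Depth limits the shares most. The setting that used 4000 UMIs is the one reported, and values under other settings follow in the order wild-type vehicle, wild-type giredestrant, Y541S vehicle, Y541S giredestrant. Of 158 alternative values of shares and counts of genes, 94 stayed within their interval or within 1.5 times, and the other 64 are given here. Of single genes and list medians, 1550 stayed, 58 moved and 2 changed sign. The cause was not tested in any of them.

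With all UMIs, the cycling share was 6.15%, 13.3%, 10.51% and 4.11% of hormone-sensing cells, 16.3%, 14.5%, 23.6% and 15.7% of secretory-gated cells, and 3.79%, 4.69% and 5.44% of basal-gated cells of the first 3 libraries. At 8000 UMIs it was 4.13% in wild-type vehicle, 6.73% in Y541S vehicle and 4.83% in Y541S giredestrant hormone-sensing cells. The same 3 libraries gave 15.1%, 20.7% and 21.2% of secretory-gated cells and 4.18%, 5.33% and 9.01% of basal-gated cells. At 2000 UMIs it was 2.91% in wild-type giredestrant and 3.66% in Y541S vehicle hormone-sensing cells. For wild-type vehicle, Y541S vehicle and Y541S giredestrant it was 7.02%, 11.4% and 8.33% of secretory-gated and 1.4991%, 2.41% and 2.67% of basal-gated cells.

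A call of 2 or more of the 10 genes gave 6.73% and 4.11% of hormone-sensing cells in Y541S vehicle and giredestrant. It gave 15.1%, 19.4% and 19.1% of secretory-gated cells in wild-type vehicle, Y541S vehicle and Y541S giredestrant, and 3.26% and 5.63% of basal-gated cells in the first and last of these. A call of 4 or more gave 3.72% in wild-type giredestrant and 3.96% in Y541S vehicle hormone-sensing cells. It gave 8.22%, 12.8% and 10.3% of secretory-gated cells in the same 3 libraries as before, and 2.01% and 2.904% of basal-gated cells in wild-type vehicle and Y541S vehicle. The 10 other cycle genes gave 2.84%, 3.17% and 2.33% of hormone-sensing cells in wild-type giredestrant, Y541S vehicle and Y541S giredestrant. Removing the highest doublet scores, stricter filters and gates, and leaving out barcodes found in another library (chosen after seeing the data) kept all 4 hormone-sensing shares within their intervals.

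Counts of genes at least 2-fold different depended on the count minimum. With 5 expected counts in place of 20, the numbers higher were 1197, 921, 1117 and 755, and lower 964, 659, 802 and 563. In all 4 libraries 299 were higher and 14 lower, and at 3-fold 0 were lower. With cells thinned to 4000 UMIs before all steps, which leaves fewer genes measured and could not be done with the 15 wild-type vehicle cells, 114, 155 and 93 genes were higher and 141, 93 and 74 lower in the other 3 libraries. Of those, 32 were higher in all 3. With a mean over cells, 443 genes were lower in wild-type giredestrant. The median of basal markers in wild-type vehicle turned from -0.63 to 0.10 with a mean over cells, and that of G1 genes in Y541S vehicle from 0.89 to -0.14 with thinned sums.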
